A study of Mus musculus with 58 samples.

Results

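The V-ATPase V1 subunit genes were followed in RNA-sequencing data from 2 brain regions of aged *APOE* targeted replacement mice. The 10 genes were taken by symbol from the lists of both regions, *Atp6v1a*, *Atp6v1b1*, *Atp6v1b2*, *Atp6v1c1*, *Atp6v1d*, *Atp6v1e1*, *Atp6v1f*, *Atp6v1g1*, *Atp6v1g2* and *Atp6v1h*, and all 10 were found among the 31246 genes listed per region. The mice were males on a C57Bl/6 background, 14 to 15 months old, in which human *APOE* stands under the mouse promoter, so that no group carried mouse *Apoe*. In each of the entorhinal cortex (EC), which is vulnerable in Alzheimer's disease, and the primary visual cortex (PVC), which is more resistant, there were 10 *APOE3/3* and 19 *APOE3/4* libraries, 58 in all. The same 29 animal numbers occur in both regions. The mice of the whole study came from more than a single colony, and the paper does not say which gave the sequenced mice. The values used were the authors' mean normalized counts over all 29 libraries of a region, both genotypes together. They carry no SD and no comparison of genotypes, so the spread between mice is unknown here and no test was run. Depth per library was not analysed here.

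A rotary proton pump, the V-ATPase acidifies endosomes, lysosomes and synaptic vesicles. Its soluble V1 sector hydrolyses ATP and turns a central shaft, and its membrane-bound V0 sector carries the protons. In neurons the proton gradient also powers the loading of neurotransmitters into synaptic vesicles. Subunits A and B form the ring that binds ATP, with the catalytic sites on A. Subunits D and F form the rotor, E and G the peripheral stalks, and C and H join the stalks to V0. Several subunits have more than 1 gene, and *Atp6v1b1* is best known from acid-secreting cells of the kidney, inner ear and epididymis.

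To compare genes with each other, each mean was divided by the length of the gene's annotated exons, with overlapping exons counted once, and scaled so that all genes with a length had the same total in each region. This level per length is given as parts-per-million (ppm) of that total. Genes with a length and a mean above 0 in a region, 22608 in the EC and 22168 in the PVC, are called expressed here. Of the V1 genes, 9 were among the top 5% of expressed genes in both regions and *Atp6v1b1* was near the floor. That count was made with the exon length only. The median level of the 10 genes was 334 ppm in the EC and 305 ppm in the PVC, where the median of all genes with a mean above 0 was 7.15 ppm and 7.36 ppm. Together the 10 genes made up 0.381% of the length-scaled signal of the EC and 0.376% of that of the PVC. The order of the 10 genes was the same in both regions. Without a spread it is not known which neighbours in this order differ.

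The ATP-binding ring was represented by *Atp6v1a* and *Atp6v1b2*. *Atp6v1a*, the catalytic subunit, had a mean normalized count of 32168 in the EC against 15396 in the PVC, or 400 and 346 ppm per length. The means of *Atp6v1b2*, the nucleotide-binding partner of A, were 39346 and 19225, or 558 and 493 ppm. The level of *Atp6v1b2* exceeded that of *Atp6v1a* by 1.39 times in EC and 1.42 times in PVC tissue. *Atp6v1b1* had a mean of 23.3 in the EC against 6.22 in the PVC, or 0.909 and 0.439 ppm, which placed it at the 32.3rd and 27.1st percentile of expressed genes. It was the lowest of the 10 genes in both regions.

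The rotor genes were lower than *Atp6v1a* and *Atp6v1b2*. *Atp6v1d* stood at 188 ppm in the EC and 192 ppm in the PVC, from means of 9190 and 5187. *Atp6v1f* stood at 247 and 252 ppm, from means of 3492 and 1973. *Atp6v1d* stood at 0.761 of *Atp6v1f* in the EC against 0.76 in the PVC. Which rotor gene is higher turns with the length used, since by coding length *Atp6v1d* was 1.27 times *Atp6v1f* in both regions, and by the longest transcript 0.592.

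Of the 3 stalk genes, *Atp6v1e1* and *Atp6v1g2* came first and second in the order and *Atp6v1g1* came 8th. *Atp6v1e1*, the gene of the E stalk subunit, reached 898 ppm in the EC and 939 ppm in the PVC, from means of 14370 and 8308. *Atp6v1g2*, known as the brain form of the G stalk subunit, reached 603 and 623 ppm, from means of 20142 and 11513. *Atp6v1g1*, the widely expressed G gene, reached 208 and 221 ppm, from means of 3135 and 1847. Of these, *Atp6v1e1* exceeded *Atp6v1d*, the lowest of the 9 abundant genes, by 4.78 times in the EC and 4.89 times in the PVC, and by coding length by 1.71 and 1.75 times. Of the genes that join the stalks to V0, *Atp6v1c1*, whose product is released when V1 and V0 come apart, stood at 444 and 424 ppm (means of 12384 and 6547). *Atp6v1h*, whose product restrains ATP hydrolysis by free V1, stood at 268 and 264 ppm (means of 7032 and 3844), so that C1 was 1.66 times H in the EC and 1.6 times in the PVC.

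**Figure D1:**
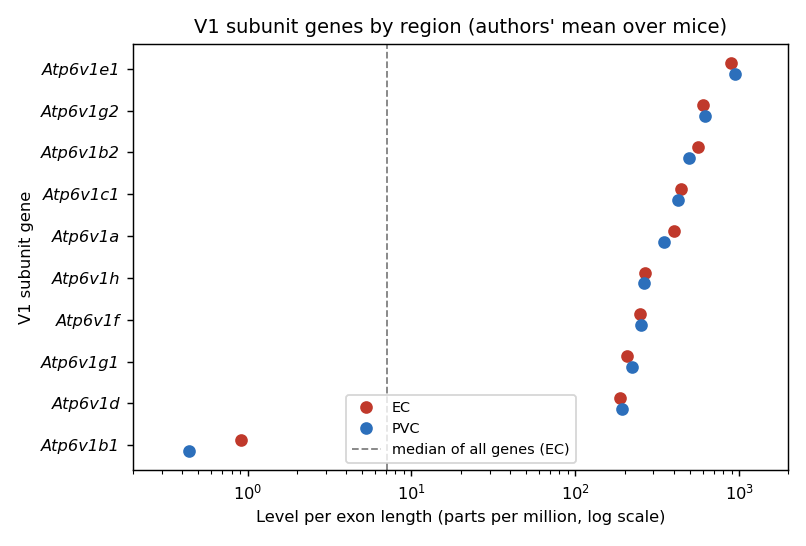
Level per exon length of the 10 V1 subunit genes (parts-per-million, log axis), from the authors' mean over all mice of the EC (red) and the PVC (blue). The 9 abundant genes lie between 188 and 939 ppm, and *Atp6v1b1* lies at 0.909 ppm in the EC and 0.439 ppm in the PVC, below the median of all EC genes at 7.15 ppm (dashed line).

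The order depends on the length used. By the longest annotated transcript *Atp6v1b2* stood at 886 ppm in the EC and came first there, and by coding length alone *Atp6v1g2* came first at 1374 ppm in the EC and 1409 ppm in the PVC. By coding length the lowest of the 9 abundant genes was *Atp6v1h*, at 117 and 115 ppm, and *Atp6v1d* was 5th. The annotated exons of *Atp6v1g2* span 2510 bases for 354 coding bases. *Atp6v1b1* was last and *Atp6v1a* 4th or 5th by each length.

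The 10 genes lie on 8 chromosomes of NCBIM37. *Atp6v1a* is on chromosome 16 (44085515 to 44139818, minus strand), *Atp6v1b1* on chromosome 6 (83693011 to 83708803, plus), *Atp6v1b2* on chromosome 8 (71612545 to 71637610, plus) and *Atp6v1c1* on chromosome 15 (38591659 to 38622198, plus). *Atp6v1d* is on chromosome 12 (79941712 to 79962625, minus), *Atp6v1e1* on chromosome 6 (120745263 to 120772703, minus) and *Atp6v1h* on chromosome 1 (5073254 to 5152630, plus). The exon lengths used for the levels include the UTRs.

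Close copies elsewhere in the genome limit the values of 2 members. The transcript of *Atp6v1g1* (chromosome 4, 63205806 to 63211784 of NCBIM37, plus strand, 3 exons) aligned over 1011 bases at 98.61% identity to chromosome 2, 39982438 to 39983447, and to 8 more places at lower identity. The transcript of *Atp6v1f* (chromosome 6, 29417718 to 29420512, plus strand, 3 exons) aligned over 659 bases at 97.57% identity to chromosome 17, 74728629 to 74729283. A read of 149 bases could match both places, so the levels of *Atp6v1g1* and *Atp6v1f* are uncertain, and the loss of reads to these copies was not tested. For *Atp6v1a* and *Atp6v1e1* the closest copies had 91.21% and 87.31% identity, and for the other 6 genes no alignment of a read length was found outside the gene. Paralogs did not share enough sequence to split reads, with a longest identical run of 26 bases between *Atp6v1b1* and *Atp6v1b2* and of 11 bases between *Atp6v1g1* and *Atp6v1g2*. In the annotation *Atp6v1g2* (chromosome 17, 35370605 to 35375712, plus strand) shares 144 exonic bases, 5.74% of its exons, with *Nfkbil1* on the other strand, and the library kit does not mark strand.

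Each subunit with several genes drew on a main isoform. By level per length *Atp6v1b1* supplied 0.163% of the B transcripts in the EC against 0.0891% in the PVC. *Atp6v1c2*, the second C gene, supplied 1.77% and 0.44% of the C transcripts. *Atp6v1e2*, a second E gene known from testis, supplied 0.00434% and 0.00563%. Only G was divided, with 74.4% from *Atp6v1g2* and 25.6% from *Atp6v1g1* in the EC, and 73.8% and 26.2% in the PVC. *Atp6v1g3*, known from kidney, gave 0.000909% and 0.000173%. The G split rests on the *Atp6v1g1* value whose uncertainty is given above, and with coding length the share of *Atp6v1g2* was 86.5% in the EC against 86.2% in the PVC.

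**Figure D2:**
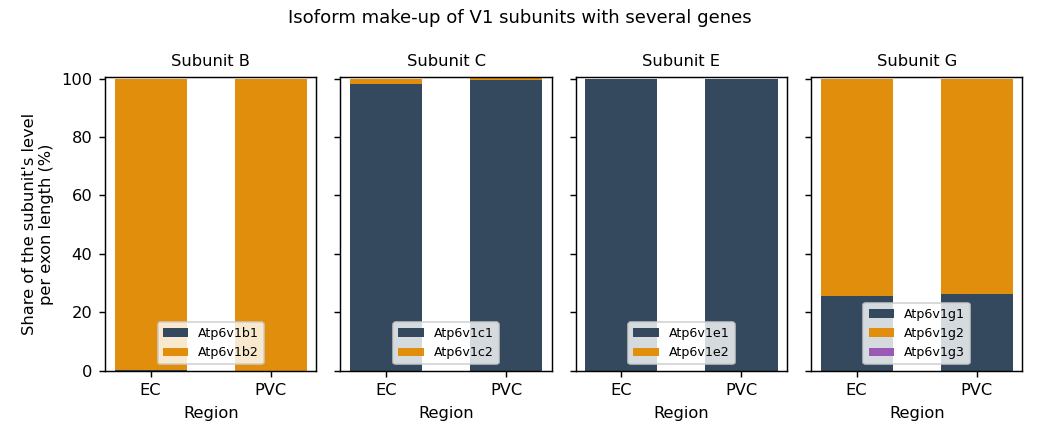
Share of each isoform (percent of the subunit's summed level per exon length) for subunits B, C, E and G in the EC and the PVC. The bars of B, C and E are almost wholly 1 colour, and those of G are divided, with *Atp6v1g2* at 74.4% in the EC against 73.8% in the PVC.

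The question of whether the V1 genes are expressed at different levels in the 2 regions was addressed with the pooled means. The authors normalized the regions separately, and the EC means summed to 1.83 times the PVC means, so each list was first scaled to the same total. Of the 10 genes, 9 had a mean normalized count of at least 10 in both regions, and *Atp6v1b1* did not because of its PVC mean of 6.22. None of the 9 was 1.5 times higher in the EC and none was 1.5 times lower. Of the 15642 genes that met the same minimum, 7.17% were higher and 5.01% were lower by that fold. The log2 ratios of EC over PVC ran from −0.11 for *Atp6v1g1* to 0.20 for *Atp6v1a*, with a median of −0.04 beside 0.02 for all genes. The middle 50% of all genes lay between −0.12 and 0.19.

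By place in the pump, the ring genes *Atp6v1a* and *Atp6v1b2* had the highest log2 ratios, 0.20 and 0.17, at the 75.6th and 72.5th percentile of all genes. The V0-facing genes *Atp6v1c1* and *Atp6v1h* followed at 0.05 and 0.00. The rotor genes *Atp6v1d* and *Atp6v1f* both had −0.04, and the stalk genes *Atp6v1g2*, *Atp6v1e1* and *Atp6v1g1* had −0.06, −0.08 and −0.11. The gap between *Atp6v1a* and *Atp6v1g1*, 0.30 on the log2 scale, does not depend on the scaling of the regions, since *Atp6v1a* was 1.93 times *Atp6v1g1* per length in the EC and 1.57 times in the PVC. With no values of single mice, none of these differences can be set against the spread between mice. Over 15098 genes, which share their libraries, the ratio had a Spearman rho of 0.04 with exon length.

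**Figure D3:**
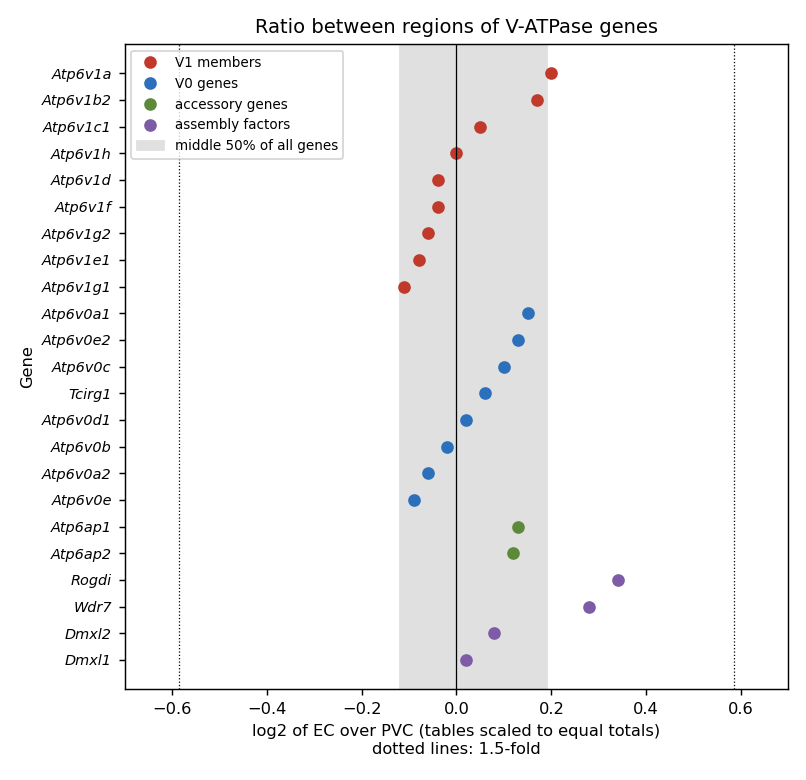
Log2 ratio of the EC over the PVC mean for each V-ATPase gene with a mean of at least 10 in both regions, by list, except *Atp6v1c2*, which lies off the axis at 2.07. The grey band is the middle 50% of all genes and the dotted lines mark 1.5-fold. The V1 genes run from 0.20 (*Atp6v1a*) to −0.11 (*Atp6v1g1*), and none reaches a dotted line.

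The V0 genes gave ratios of the same size. Of the 10 V0 genes, 8 met the minimum, with a median log2 ratio of 0.04 and a range from −0.09 for *Atp6v0e* to 0.15 for *Atp6v0a1*. In each region 5 of the 10 V0 genes, beside 9 of the 10 V1 genes, were in the top 5% of expressed genes. *Atp6v0c*, which encodes the proton-carrying ring, was the highest at 888 ppm in the EC and 823 ppm in the PVC, and *Atp6v0d2*, a form of subunit d known from osteoclasts, was the lowest with means of 0.252 and 0.0407. The accessory genes *Atp6ap1* and *Atp6ap2* had log2 ratios of 0.13 and 0.12. The 4 genes for factors that assemble V1 onto V0 ran from 0.02 for *Dmxl1* to 0.34 for *Rogdi*. These 2 lay at the 48.8th and 85.3rd percentile of all genes, whose median was 0.02.

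The V1 genes of low level were *Atp6v1b1*, *Atp6v1c2*, *Atp6v1e2* and *Atp6v1g3*. *Atp6v1c2* had a mean of 220 in the EC against 28.6 in the PVC, a log2 ratio of 2.07 at the 99.6th percentile of all genes. *Atp6v1b1* had a log2 ratio of 1.04, from means too low for the comparison above. *Atp6v1e2* had means of 0.521 in the EC against 0.391 in the PVC (log2 ratio −0.45) and *Atp6v1g3* of 0.185 and 0.0202 (2.32), values near 0 from which no direction is read. Genes of kidney intercalated cells, where the B1 isoform is at home, were checked beside it. *Slc26a4*, an anion exchanger, had means of 647 and 160 with a log2 ratio of 1.15. *Foxi1*, a transcription factor known to drive *Atp6v1b1* in such cells, had means of 10.2 and 1.46. *Slc4a1*, another of their exchangers, had 4.27 and 2.16 with a log2 ratio of 0.12. As parts-per-million of the total mean count, these 3 genes summed to 13.4 in EC and 6.05 in PVC tissue, mostly from *Slc26a4*. Their part in the *Atp6v1b1* values was not tested.

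**Figure D4:**
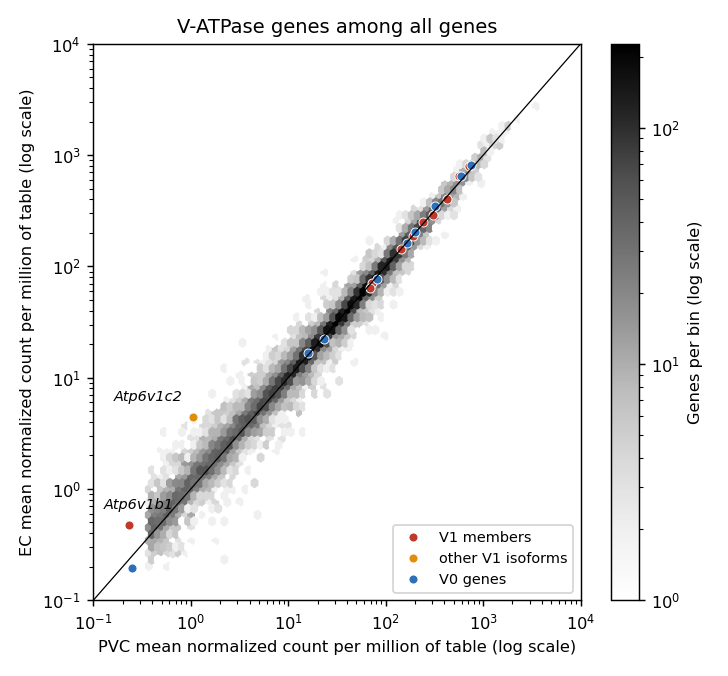
Mean normalized count, as parts-per-million of each region's total, in the EC against the PVC, on log axes, for all genes with a mean of at least 10 in both regions (grey bins) and the V-ATPase genes (points, shown where both values are at least 0.1). Red points of the V1 members follow the line of equality, except *Atp6v1b1* (log2 ratio 1.04), which lies above it. *Atp6v1c2* (2.07), not one of the 10 members, also lies above it.

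Marker genes were read to describe the tissue. None was chosen to tell the EC from the PVC, so they do not check the region labels. Of the 6 neuronal markers 5 were used, as *Rbfox3* was not among the listed symbols. The levels per length of these 5 in the EC ran from 158 ppm for *Gad1* to 1992 ppm for *Slc17a7*. As sums over each list, the EC over PVC ratio was 0.821 for neurons, 1.06 for astrocytes, 1.1 for microglia and 1.01 for endothelium. Within the neuronal and astrocyte lists the genes went both ways, with log2 ratios from −0.78 for *Nefl* to 0.16 for *Slc17a7* and from −0.33 for *Aldh1l1* to 0.64 for *Gfap*, and *Slc1a2* at 0.02 made up most of the astrocyte sum. The microglial markers ran from 0.03 to 0.17 and the endothelial ones from −0.12 to 0.06. The 4 oligodendrocyte markers were lower in the EC, with log2 ratios from −1.60 to −1.34 and a ratio of sums of 0.388. Among choroid plexus markers *Ttr* had a log2 ratio of −2.15 and the others lay between 0.03 and 0.12. The dentate gyrus markers *C1ql2*, *Dsp* and *Tdo2* had 1.82, 1.01 and 0.69, and *Prox1* had −0.23. In the PVC the means of *Dsp* and *Tdo2* were low, 9.69 and 9.58. In such bulk tissue a difference in the number of cells of a type and a difference in RNA per cell cannot be told apart, and the part of cell make-up in the V1 ratios was not tested.

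Promoter sequences were read for the contrast between the broadly used genes and *Atp6v1b1*. RefSeq windows of 300 bases (GRCm38.p6, from 250 bases before to 50 after the transcription start) were at hand for 6 of the 10 genes, with 2 windows for *Atp6v1g2*. For the first of these 2, a short run of the transcribed bases was not found in the protein coding NCBIM37 transcripts of *Atp6v1g2*. Transcripts of other genes were not searched. The genes without a window were *Atp6v1b2*, *Atp6v1c1*, *Atp6v1g1* and *Atp6v1h*. The ratio of observed to expected CpG was 0.12 for *Atp6v1b1*, with 3 CpG in the window, at the 16.7th percentile of the 32851 windows. In the windows of the abundant genes it ran from 0.47 for a window of *Atp6v1g2* to 0.80 for *Atp6v1e1*, above the median of 0.38 for all windows. GC content did not separate them, with 57.3% for *Atp6v1b1* and a range from 45.3% (*Atp6v1a*) to 59.7% (*Atp6v1d*) for the others.

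The windows of the catalytic gene, of the V1 gene highest per exon length and of *Atp6v1b1* are printed here 5′ to 3′. These differences can thus be read in the sequence. Capitals mark matches, on either strand, to 5 short motifs. These were the E-box core CACGTG, found in 7.15% of all windows, the GC box GGGCGG, found in 35.7%, the CCAAT box, found in 37.4%, the TATA box TATAAA, found in 13.6%, and the forkhead core TAAACA, found in 13.4%. The TATA matches of *Atp6v1e1* overlap each other.
Atp6v1a, chr16:44139210-44139509, minus strand: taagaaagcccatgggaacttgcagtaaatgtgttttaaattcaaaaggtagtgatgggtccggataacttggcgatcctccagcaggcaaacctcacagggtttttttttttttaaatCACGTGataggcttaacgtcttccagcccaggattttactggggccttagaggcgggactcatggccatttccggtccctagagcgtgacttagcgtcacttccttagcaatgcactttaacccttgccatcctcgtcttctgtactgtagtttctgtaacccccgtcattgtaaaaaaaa
Atp6v1e1, chr6:120822649-120822948, minus strand: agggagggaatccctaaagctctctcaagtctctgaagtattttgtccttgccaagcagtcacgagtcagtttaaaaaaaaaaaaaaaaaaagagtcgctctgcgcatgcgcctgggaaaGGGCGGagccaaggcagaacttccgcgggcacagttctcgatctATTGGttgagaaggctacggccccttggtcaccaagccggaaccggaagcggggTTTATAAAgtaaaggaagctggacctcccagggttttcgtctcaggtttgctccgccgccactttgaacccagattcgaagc
Atp6v1b1, chr6:83742767-83743066, plus strand: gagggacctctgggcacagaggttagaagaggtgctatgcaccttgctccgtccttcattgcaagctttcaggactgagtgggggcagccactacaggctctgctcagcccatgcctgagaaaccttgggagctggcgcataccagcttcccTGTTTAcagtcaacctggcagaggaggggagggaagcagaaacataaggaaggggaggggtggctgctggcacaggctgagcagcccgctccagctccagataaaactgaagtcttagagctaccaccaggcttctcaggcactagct

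The E-box core occurred in the *Atp6v1a* window alone among the 7, 131 bases before the start. This core lies within the element that TFEB, a regulator of lysosomal genes, is known to bind. A GC box was found in 4 of the 7 windows, those of *Atp6v1d*, *Atp6v1e1* and *Atp6v1f* and 1 of *Atp6v1g2*. The *Atp6v1e1* window also held a CCAAT match and 2 TATA matches, the nearer starting 30 bases before the start. The *Atp6v1b1* window held none of these and a forkhead match 98 bases before the start. A match is a run of letters and no measured binding site.

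**Figure D5:**
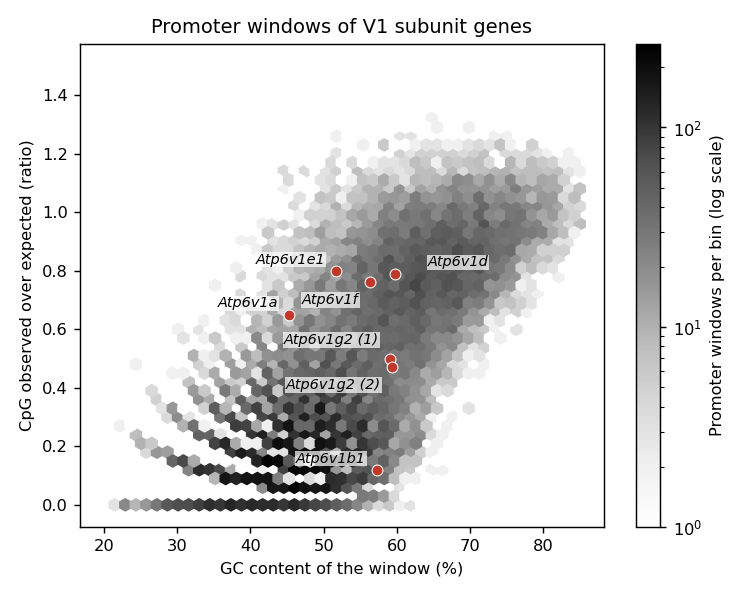
Observed over expected CpG against GC content (percent) for all 32851 RefSeq promoter windows (grey bins, shown from 20 to 85% GC) and the 7 windows of V1 genes (red points). *Atp6v1b1* lies at 0.12 and the other 6 windows between 0.47 and 0.80.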

How the data were processed

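Poly(A)+ RNA from the EC and PVC was sequenced as single-end reads of 149 bases. The authors aligned them to mm9 with TopHat2 2.0.6 and Bowtie2 2.0.2.0, counted them per gene with HTSeq on a modified NCBIM37 annotation (release 61), and ran DESeq2 1.10.1 within each region. Treatment of multiply aligned reads is not given in the sources used here. The mean normalized count was deposited by the authors as a single value per gene and region, pooled over its libraries after their counts had been put on a common scale by size factors, and was treated as a signal. Each table also holds 5 columns of the authors' own comparison of the genotypes (log2 fold change, its standard error, test statistic, *p*-value and adjusted *p*-value). As results of the study itself these were not used, so no genotype comparison is given.

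Exon lengths came from the GENCODE M1 annotation of NCBIM37 (the mm9 build), to which 81.2% of the listed symbols matched, with 98.4% of the EC and 98.5% of the PVC signal. The methods name protein coding genes, but 4701 matched symbols are annotated otherwise. Copies were sought with blastn 2.17.0 (alignments of at least 149 bases outside the gene). Motifs were searched on both strands. Levels and ratios came from scripts in Python 3.11.15 with pandas 2.3.3 and numpy 2.4.6 (correlations from scipy 1.17.1, figures from matplotlib 3.10.9). The ratio procedure was tested on simulated data with planted changes beyond 1.5-fold and counting noise only. With no spread between mice, that test checks the code and not the ratios reported. The text names all members, and genes of the other lists where they are a paralog or the highest or lowest of their list, and marker genes of fixed cell type lists. Members and lists were chosen with earlier results of these data known. Alternatives were other gene lengths, other scalings of the regions, a minimum mean of 100 and a fold of 1.2. The means carry no counting interval, since library depths were not analysed here.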

Additional observations from a re-analysis of the deposited data

How the results depend on the processing

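The levels rest on the annotated length. With the longest transcript, *Atp6v1b2* alone of the 10 genes moved by over 1.5 times. With coding length from the annotation, chosen after the data were seen in place of a protein table that was not used here, 6 genes did so in each region, *Atp6v1h* falling to 117 ppm in the EC. The median of the members stayed between 280 and 352 ppm in the EC and between 275 and 323 ppm in the PVC over these lengths and over scaling on protein coding genes. Ratios between regions rest on the scaling. With the regional means as deposited, all genes that met the minimum had a median EC over PVC ratio of 1.86. The typical gene was thus above 0 on the log2 scale. On that scale the median log2 ratio of the 9 genes compared was 0.83 and all 9 were above 0. With scaling to the median ratio of all genes it was −0.07, and without the 20 most abundant genes of each region −0.05, with 3 genes above 0 in place of 4 because *Atp6v1h* changed side. No member passed 1.5-fold with scaling to the median ratio or with a minimum mean of 100, where 4.12% of all genes were higher and 4.22% lower. None passed 1.2-fold, where 19.2% were higher and 12.6% lower. No paired analysis was possible because only means over all mice of a region were used. For the same reason no library could be left out, and no effect of any size can be set against the spread between mice.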
